A study of Mus musculus with 6 samples.

Results

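Nr4a1, Nr4a2, Nr4a3, Egr1, Egr2, Egr3, Nab1 and Nab2 were followed in sorted mouse haematopoietic stem cells: 3 orphan nuclear receptors, 3 zinc-finger factors and the 2 corepressors that bind those factors. They were found by gene name in a table of transcript abundance, where each of the 8 had 1 row among 55471 gene IDs. The members were chosen by gene name after the difference between these same libraries had been seen, the drop of Nr4a1 above all, so the comparison of the members between groups is given as a description and carries no test.

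The libraries were made from total RNA of cells gated as Lin-, Kit+, Sca1+, CD48- and CD150+. Every mouse is labelled with the genotype ETV6-RUNX1, a fusion gene of childhood B-cell leukaemia that can here be switched on by doxycycline. The uninduced group (n = 3) received no doxycycline and the induced group (n = 3) ate doxycycline food for 2 weeks; both carry the fusion genotype, and no library from doxycycline-fed mice without it was analysed here, so drug and fusion cannot be told apart. Ages, sexes, the promoter that drives the fusion and whether mice were pooled are not given in the sources used here, and p-values therefore measure only the spread between these libraries.

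Nr4a receptors are called orphan receptors because they act without a known hormone and are regulated mainly by how much of them is made. Egr factors bind GC-rich sites in promoters, and Nab1 and Nab2 dock on Egr proteins and hold their activity back. Nr4a1, Egr1 and their relatives are immediate early genes, transcribed within minutes of a growth factor, stress or calcium signal without new protein synthesis. In blood stem cells, Nr4a1, Nr4a3 and Egr1 are known for their association with a resting, non-dividing state.

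The sequence just ahead of a RefSeq start site of 3 of the members is shown because Nr4a1 and Nr4a2, which encode closely related proteins, differed in how far apart the groups stood. Sequences are from RefSeq (GRCm38.p6, the build named in the submitters' processing notes being GRCm38), read 5′ to 3′ in the direction of the gene. They cover the 250 bases before the start site, shortened for Nr4a3 to the 98 bases before its first annotated exon. The Nr4a1 window lies inside the gene's annotated span: its start site is 12.6 kb downstream of the outermost GENCODE start and is that of 2 of the 4 annotated transcripts. For Nr4a3 the RefSeq start is 0.152 kb downstream of the outermost GENCODE start, and 0 of its 4 annotated transcripts begin there. Capitals mark the letters TGACG or their reverse complement, the core site of the cyclic AMP response element, and the Egr site GCGNGGGCG on either strand.
Nr4a1, chr15:101266596-101266845, plus strand: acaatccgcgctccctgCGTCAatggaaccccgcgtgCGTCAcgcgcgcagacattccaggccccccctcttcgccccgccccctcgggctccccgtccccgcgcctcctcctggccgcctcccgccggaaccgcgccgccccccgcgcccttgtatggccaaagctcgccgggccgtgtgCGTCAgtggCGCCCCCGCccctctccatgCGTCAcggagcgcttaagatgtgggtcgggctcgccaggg
Nr4a2, chr2:57124004-57124253, minus strand: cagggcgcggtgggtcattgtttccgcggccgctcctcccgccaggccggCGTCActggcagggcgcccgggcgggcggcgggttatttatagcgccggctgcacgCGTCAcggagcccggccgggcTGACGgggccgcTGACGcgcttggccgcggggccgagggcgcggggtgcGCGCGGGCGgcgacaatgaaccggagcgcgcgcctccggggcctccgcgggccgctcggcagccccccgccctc
Nr4a3, chr4:48045055-48045152, plus strand: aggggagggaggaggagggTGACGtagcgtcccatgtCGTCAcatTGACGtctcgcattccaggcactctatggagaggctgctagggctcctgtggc
Of the 8 genes, 6 had an entry in the promoter table; Egr1 and Egr3 had none.

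The windows of Nr4a1, Nr4a2 and Nr4a3 each held 4 core sites over their 250 bases, 3 of them within the stretch shown for Nr4a3. Of 32851 promoter windows of that length, 17.8% held at least 1 core site and 0.137% held 4 or more. In Nr4a1 all 4 were part of the letters TGCGTCA, starting 235, 215, 71 and 42 bases before the start; these letters were searched for after the sequence had been seen, on both strands. At least 1 copy was in 1.75% of windows, and 1 window of the 32851, that of Nr4a1, held 4. The full element TGACGTCA, in 1.55% of windows, was found in none of the 3. Nr4a1 and Nr4a2 each held 1 Egr site, beside 4.70% of all windows, and Nab1 held 3, beside 0.140% of windows with 3 or more. These are matches of letters, with no measurement of binding.

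Values are in TPM (a transcript share of each library, corrected for length), so levels can be compared between genes, but sequencing depth is unknown. The table totals were 999976 to 999993 TPM. Nuclear protein-coding genes held 26.6% to 32.9% of the TPM in uninduced and 20.5% to 23.2% in induced libraries. The median of all 13470 genes tested was lower in the induced group by a log2 difference of -0.35, and each difference below has to be read against that offset. After median-of-ratios scaling, which equalises the typical gene between libraries, the median was 0.0032. Etv6 and Runx1, the mouse parents of the fusion, did not pass the test (limma adjusted p = 0.949 and 0.452), and no row separates the fusion transcript from them. The gate's defining genes were present, with Kit the highest, and Cd48, which the gate excludes, was at 0 to 3.02 TPM. Of 12 gate and stem cell genes 11 were tested, with 3 higher and 2 lower; under median-of-ratios scaling these counts were 5 and 1. Genes of the gate itself were among them, singled out after their values were seen. Ly6a, which encodes Sca1, rose from a mean of 14.2 ± 2.15 to 37.3 ± 6.19 TPM (SD, n = 3 in each group; limma adjusted p = 0.00694), under both scalings and whichever library was left out. Kit fell from a mean of 172.5 ± 51.97 to 95.7 ± 6.48 TPM (SD, n = 3 in each group; log2 difference -0.81, limma adjusted p = 0.0354). It was not called after median-of-ratios scaling (limma adjusted p = 0.224) or without any library but uninduced replicate 3 (0.0568 to 0.120).

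Nr4a1 (ENSMUSG00000023034, chr15:101254269-101274795, plus strand) was the most abundant Nr4a gene in uninduced cells. Its level was 67.5, 66.3 and 51.2 TPM in the uninduced libraries, against 2.47, 5.42 and 2.85 TPM in the induced ones. Every induced library lay far below every uninduced library, and the highest induced value came from replicate 2. The means were 61.6 ± 9.05 and 3.58 ± 1.61 TPM (SD, n = 3 each), a 17.2-fold lower level after induction. On the log2(TPM + 1) scale the difference was -3.82 (SE 0.29), the 4th lowest of the 13470 genes, and after median-of-ratios scaling it was -3.45. The pseudocount of 1 compresses this difference: it was -4.14 with 0.1 and -2.96 with 5. Among the 10562 nuclear protein-coding genes that entered the fit, Nr4a1 went from the 92.8th percentile of level to the 23.3rd.

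Nr4a2 (ENSMUSG00000026826, chr2:57106830-57124003, minus strand), best known from dopamine neurons, was much lower than Nr4a1 in uninduced cells. It was at 8.66, 12.5 and 7.96 TPM in the uninduced libraries, against 8.11, 1.40 and 11.5 TPM in the induced ones. The groups overlapped, and a single library, induced replicate 2, stood apart on the low side. The means were 9.71 ± 2.45 and 7.01 ± 5.16 TPM (SD, n = 3 each), a log2 difference of -0.70 (SE 0.55). Under median-of-ratios, quantile and protein-coding scaling it was -0.36, -0.37 and -0.33. Without induced replicate 2 the difference as deposited was 0.020 (SE 0.34). The library with the lowest Nr4a2 was thus also the induced library with the highest Nr4a1.

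Nr4a3 (ENSMUSG00000028341, chr4:48045153-48086447, plus strand), which is lost together with Nr4a1 in mouse models of myeloid leukaemia, had the lowest level of the 3 Nr4a genes in every library. It was at 2.17, 0.215 and 0.794 TPM in the uninduced libraries, against 0.134, 0.246 and 0.191 TPM in the induced ones. Its mean over the 6 libraries was below the 1 TPM needed to enter the fit, and the groups overlapped.

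Nr4a genes summed to 78.3, 79.0 and 60.0 TPM in the uninduced libraries, against 10.7, 7.06 and 14.6 TPM in the induced ones. Nr4a1 supplied 86.2%, 83.9% and 85.4% of that sum in the uninduced libraries. In the induced libraries it supplied 23.1%, 76.7% and 19.6%. Nr4a2 was the larger part in induced replicates 1 and 3, at 75.7% and 79.1%, but not in replicate 2, at 19.8%. The summed level therefore differed between the groups without overlap, while its makeup within the induced group differed from library to library.

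**Figure D1:**
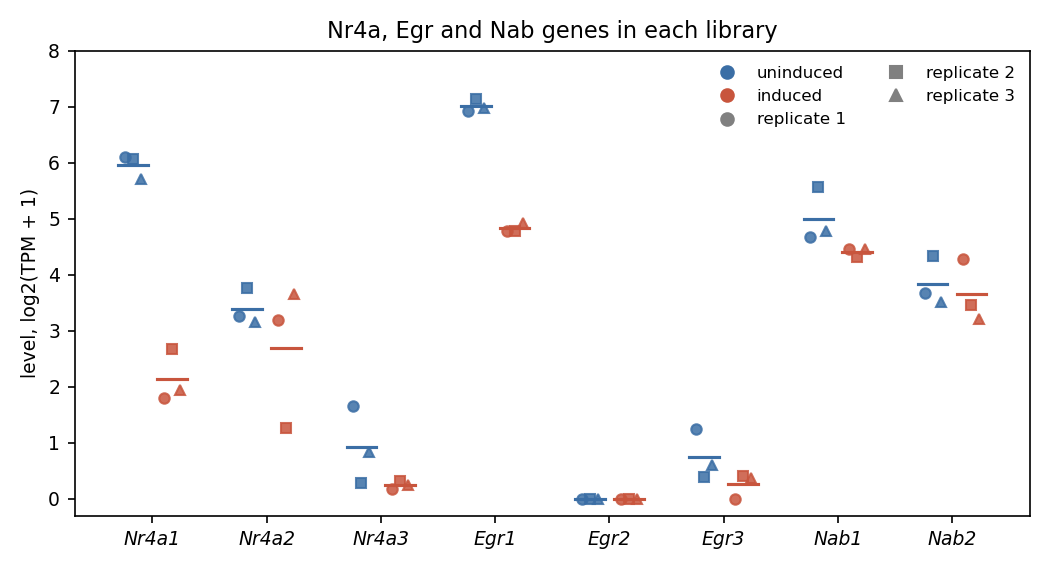
Level of each of the 8 genes in each library on the log2(TPM + 1) scale (vertical axis), with uninduced libraries in blue, induced in red, a symbol for each replicate number and a line at the group mean. Nr4a1 and Egr1 show the wide gaps between groups, Nr4a2 and Nab2 overlap, and Egr2 lies at 0 throughout.

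Egr1 (ENSMUSG00000038418), the founding member of its family, was at 121, 139.8 and 125 TPM in the uninduced libraries, against 26.4, 26.5 and 29.5 TPM in the induced ones. The groups did not overlap, and the induced libraries lay within about 3 TPM of each other. The means were 128 ± 10.05 and 27.5 ± 1.796 TPM (SD, n = 3 each), a 4.68-fold lower level after induction. The log2 difference was -2.18 (SE 0.17), and -1.78 after median-of-ratios scaling. Even so Egr1 remained an abundant transcript, at the 97.5th percentile of nuclear protein-coding genes in uninduced and the 84.95th in induced cells.

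Egr3 (ENSMUSG00000033730, chr14:70077203-70082614, plus strand), which acts with Egr2 in lymphocytes, was at 1.37, 0.309 and 0.528 TPM in the uninduced libraries, against 0, 0.328 and 0.298 TPM in the induced ones. These values are low, overlap, and were below the filter. Egr2 (ENSMUSG00000037868, chr10:67535475-67542188, plus strand), a regulator of myelination and of lymphocytes, was listed at 0 in all 6 libraries, as was Egr4, the remaining family member. Egr1 therefore made up 98.8% to 100% of the TPM of the 3 Egr genes in every library.

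The corepressors differed less between the groups than Egr1 did. Nab1 (ENSMUSG00000002881, chr1:52457294-52500679, minus strand) was at 24.5, 46.4 and 26.4 TPM in the uninduced libraries, against 21.1, 19.0 and 21.0 TPM in the induced ones. All induced values lay below all uninduced values, with uninduced replicate 2 standing high. The log2 difference of Nab1 was -0.59 (SE 0.27), and -0.20 after median-of-ratios scaling. Without uninduced replicate 2 it was -0.31.

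Nab2 (ENSMUSG00000025402, chr10:127660918-127668568, minus strand), itself a known target of Egr factors, was at 11.8, 19.1 and 10.4 TPM in the uninduced libraries, against 18.5, 10.02 and 8.22 TPM in the induced ones. The groups overlapped and each held 1 library near 19 TPM. The log2 difference of Nab2 was -0.19 (SE 0.35), and it was 0.19 after median-of-ratios scaling, so its sign depends on the scaling. Nab2 overlaps the genes Nemp1 by 1668 bases and Stat6 by 40 bases on the opposite strand. The library kit keeps strand, but whether the counting used it is not given in the sources used here, so reads from the shared stretches may be assigned to either gene. Stat6 was at 21.3 to 27.1 and 26.9 to 30.5 TPM and Nemp1 at 3.37 to 8.60 and 7.57 to 12.4 TPM in uninduced and induced libraries, and neither passed the test (limma adjusted p = 0.412 and 0.395).

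Because every value in a library shares the same scaling, ratios within a library do not depend on it. Egr1 stood at 3.32, 2.13 and 3.40 times the summed TPM of Nab1 and Nab2 in the uninduced libraries. In the induced libraries that ratio was 0.666, 0.913 and 1.01. The factor thus exceeded its corepressors in each uninduced library and was at most about level with them in each induced one, at the level of RNA. The ratio of Egr1 to Nr4a1 was 1.79, 2.11 and 2.44 in the uninduced and 10.7, 4.88 and 10.4 in the induced libraries, so the gap between groups was wider for Nr4a1 than for Egr1 in all of them. In bulk RNA, fewer cells with the transcript and less transcript in each cell cannot be told apart.

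**Figure D2:**
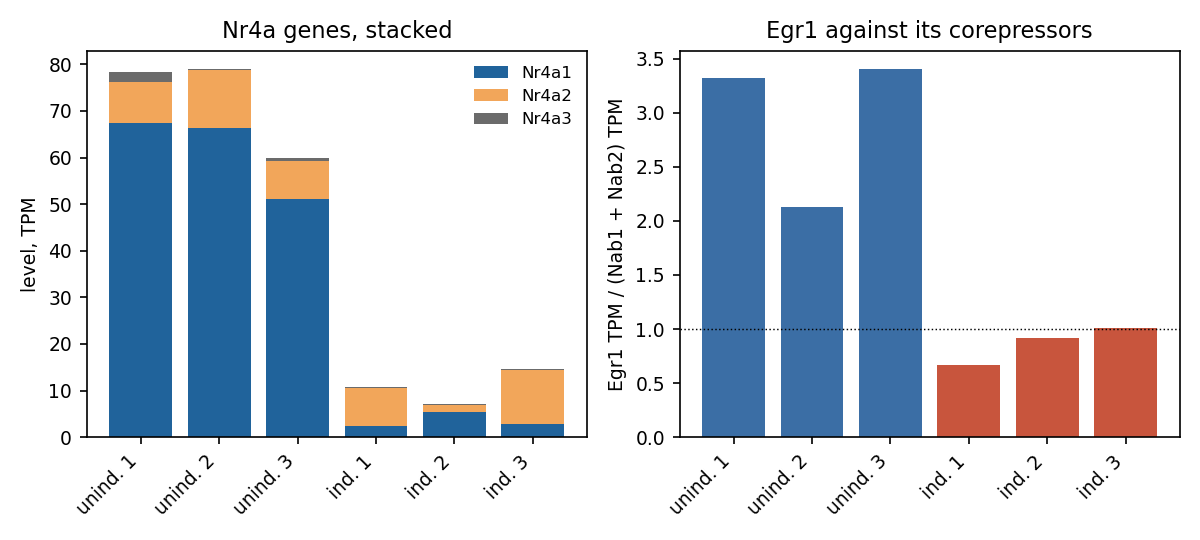
Left, TPM of Nr4a1, Nr4a2 and Nr4a3 stacked for each of the 6 libraries; right, the ratio of Egr1 TPM to the summed TPM of Nab1 and Nab2, with a dotted line at equality. The Nr4a sum is 60.0 to 79.0 TPM in uninduced and 7.06 to 14.6 TPM in induced libraries, and the Egr1 ratio is above 2 in each uninduced library and at or below 1.01 in each induced library.

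Across the 13470 genes, 10.2% were called lower, and 1.29% were called higher, in induced cells at a limma adjusted p under 0.05, and groups did not overlap for 33.1%. Of the 8 members 5 had a mean of at least 1 TPM and entered the fit, and 2 of these, Nr4a1 and Egr1, were below the threshold on the lower side, both also after median-of-ratios scaling. Nab1 was the other member whose groups did not overlap. As the members were chosen with this contrast known, these counts describe the set and nothing is read from them.

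Other immediate early genes that could be tested had log2 differences down to -1.46, that of Myc. Nr4a1 and Egr1 lay lower, but they were chosen with their differences known, so nothing is read from that. Of a list of 55, 48 could be tested, and 7 fell, 2 rose and 39 did not pass the limma threshold. The list's median log2 difference was -0.13, beside -0.35 over all genes tested. After median-of-ratios scaling, where 3.10% of all genes were lower and 2.88% higher by the same threshold, 2 fell and 8 rose, with a median of 0.27. The split of this list by direction therefore turns with the scaling.

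Myc, a growth regulator, fell, its mean of 59.8 ± 12.9 TPM becoming 21.7 ± 8.79 TPM (SD, n = 3 in each group), a log2 difference of -1.46 (limma adjusted p = 0.0120). Plk2, a stress-responsive kinase, fell, its mean of 19.4 ± 0.521 TPM becoming 6.93 ± 2.21 TPM (SD, n = 3 in each group; limma adjusted p = 0.0132). Klf4 and Klf2, which restrain proliferation, fell by 1.22 and 1.03 on the log2 scale (limma adjusted p = 0.0170 and 0.0404). Jun, a subunit of AP-1, fell, its mean of 808 ± 105 TPM becoming 439 ± 19.7 TPM (SD, n = 3 in each group), a log2 difference of -0.87 (limma adjusted p = 0.00507). Of these, Myc and Jun also kept a lower call under median-of-ratios scaling (limma adjusted p = 0.0415 and 0.0294), while Plk2, Klf4 and Klf2 were not (0.0554, 0.0610 and 0.180). Jun lost its call without the variance trend (limma adjusted p = 0.0648) and Myc without the filter on low values (limma adjusted p = 0.0622). With 1 library left out, Jun passed every time, and Klf2 passed in none of these fits (limma adjusted p = 0.0513 to 0.126), with a log2 difference of -1.17 to -0.84. Myc was lost without uninduced replicate 2, induced replicate 1 or induced replicate 2 (limma adjusted p = 0.0512 to 0.0610), Plk2 without uninduced replicate 1 or 2 or induced replicate 1 or 2 (0.0512 to 0.0563), and Klf4 without uninduced replicate 1 or 2 or induced replicate 2 or 3 (0.0528 to 0.0719). Over all 6 omissions the log2 difference was -1.76 to -1.26 for Myc, -1.61 to -1.20 for Plk2 and -1.36 to -1.09 for Klf4.

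The genes that rose were Zfp36l1, which promotes decay of AU-rich mRNAs, and the zinc-finger factor Klf6. Zfp36l1 went from a mean of 4.61 ± 1.99 to 13.7 ± 3.62 TPM (SD, n = 3 in each group; log2 difference 1.43, limma adjusted p = 0.0301) and Klf6 from a mean of 59.4 ± 7.14 to 96.3 ± 9.72 TPM (SD, n = 3 in each group; log2 difference 0.69, limma adjusted p = 0.0328). The most abundant genes of the list without a call were Zfp36l2, Dusp1 and Zfp36. Their log2 differences were 0.012, 0.20 and 0.023, with limma adjusted p of 0.969, 0.425 and 0.942. Dusp1, a phosphatase that switches off MAP kinases, was called higher after median-of-ratios scaling (0.61, limma adjusted p = 0.0429). Klf6 lost its call when any library was left out (limma adjusted p = 0.0571 to 0.103), and Zfp36l1 when any but uninduced replicate 3 was (0.0583 to 0.114).

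Fos and Ier2, chosen after their values were seen, give a reference within each library, as both are rapidly induced genes. Fos was at 582, 605 and 465 TPM in the uninduced libraries, against 344, 312 and 377 TPM in the induced ones. Fos is itself among the 7 called lower (log2 difference -0.67, limma adjusted p = 0.0210), so a ratio to it shows a smaller gap than the TPM does. Fos did not pass under median-of-ratios scaling (limma adjusted p = 0.143) or without uninduced replicate 1 or 2 or induced replicate 1 or 2 (0.0697 to 0.0932). Ier2 did not pass (log2 difference -0.12, limma adjusted p = 0.620). The ratio of Nr4a1 to Fos was 0.116, 0.109 and 0.110 in the uninduced and 0.00718, 0.0174 and 0.00757 in the induced libraries. For Egr1 the ratio to Fos was 0.207, 0.231 and 0.269, against 0.0766, 0.0848 and 0.0784. Relative to Ier2 the same order held, with Nr4a1 at 0.311 to 0.390 and 0.0165 to 0.0374, and Egr1 at 0.695 to 0.823 and 0.171 to 0.183. Among the 57 genes formed by this list with Nr4a1 and Egr1, Nr4a1 went from the 14th to the 45th highest mean level and Egr1 from the 8th to the 19th.

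**Figure D3:**
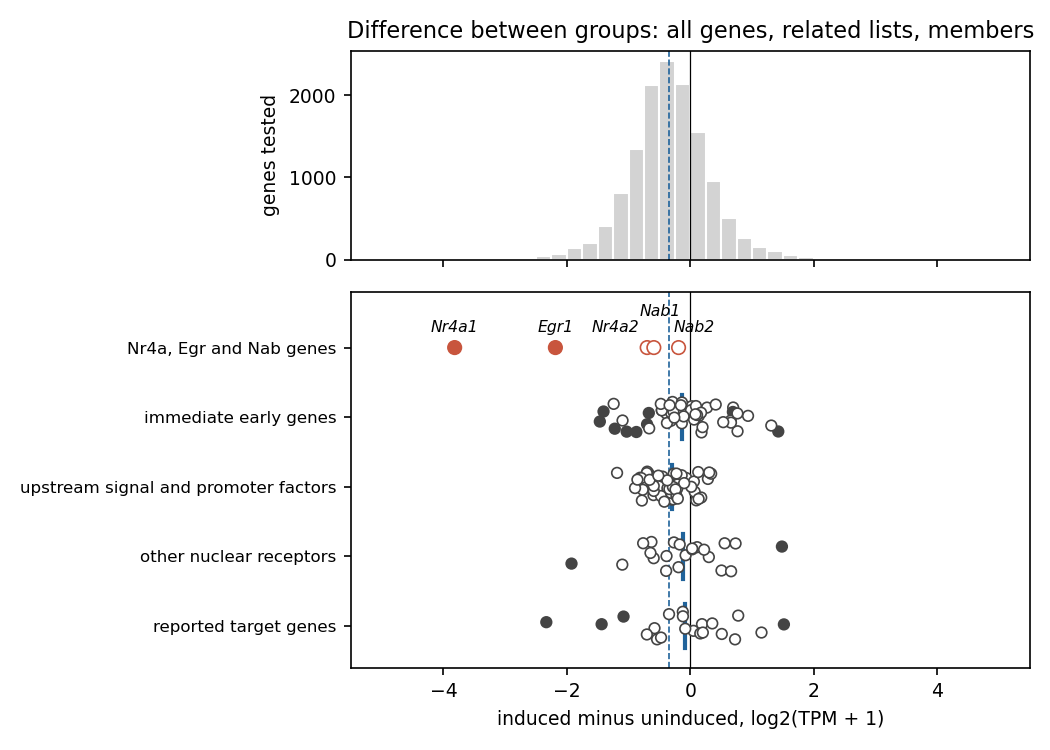
Top, the number of genes by log2(TPM + 1) difference, induced minus uninduced; bottom, the same difference for the 5 members tested and for the tested genes of 4 related lists, filled where the limma adjusted p is under 0.05, with a blue bar at each list's median and a dashed line at the median of all genes, -0.35. Nr4a1 at -3.82 lies to the left of every gene of the 4 lists, and no gene of the upstream list is filled.

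Factors that regulate these genes were measured as a second list. It held serum response factor and its partners, Mef2, CREB and NFAT factors, calcineurin, class IIa histone deacetylases and the MAP kinase chain. None of the 47 tested of 50 was called by limma, with 11 at an unadjusted p under 0.05, a limit that 27.9% of all genes tested met. After median-of-ratios scaling none was called and 3 were at an unadjusted p under 0.05, beside 21.8% of all genes. The list's median log2 difference was -0.30, close to that of all genes. The highest expressed were Map2k2, Rps6ka1 and Elk4, with log2 differences of -0.24, -0.22 and -0.24 (limma adjusted p = 0.514, 0.504 and 0.486). Srf, which binds the serum response element of early gene promoters, was at 15.9, 18.1 and 24.8 TPM in the uninduced libraries, against 21.6, 14.2 and 12.1 TPM in the induced ones, with overlapping groups. Srf was singled out after its values were seen. RNA levels do not show the activity of kinases or of factors that are regulated by phosphorylation.

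Nr4a1 was compared with the rest of its superfamily. Of 49 nuclear receptor genes, 24 had a mean of at least 1 TPM and 15 were listed at 0 in every library. By mean level Nr4a1 was the highest receptor in uninduced cells, at 61.6 ± 9.05 TPM, next to the oxysterol receptor Nr1h2 at 59.1 ± 8.78 TPM and the thyroid hormone receptor Thra at 40.3 ± 9.97 TPM (SD, n = 3 each). Nr4a1 and Nr1h2 did not differ beyond their spread. In induced cells Nr4a1 was 14th, below Nr4a2 in 10th place, and Nr1h2, Thra and Rxrb led the order at 56.8 ± 14.1, 32.7 ± 1.24 and 28.4 ± 2.53 TPM (SD, n = 3 each). Rxrb encodes a retinoid X receptor, with which Nr4a1 and Nr4a2 proteins can pair.

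Of the other 46 receptors 22 were tested, 1 rose, 1 fell and 20 did not pass, with a median log2 difference of -0.12 beside -0.35 over all genes. Rarg, a retinoic acid receptor, rose, its mean of 4.99 ± 1.16 TPM becoming 15.9 ± 3.92 TPM (SD, n = 3 in each group; log2 difference 1.49, limma adjusted p = 0.0151). It was also called after median-of-ratios scaling (limma adjusted p = 0.0124). Rarg was lost without uninduced replicate 2, induced replicate 2 or induced replicate 3 (limma adjusted p = 0.0551 to 0.0707). Nr1h2, Thra and Rxrb had log2 differences of -0.075, -0.26 and 0.030, with limma adjusted p of 0.857, 0.475 and 0.951.

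**Figure D4:**
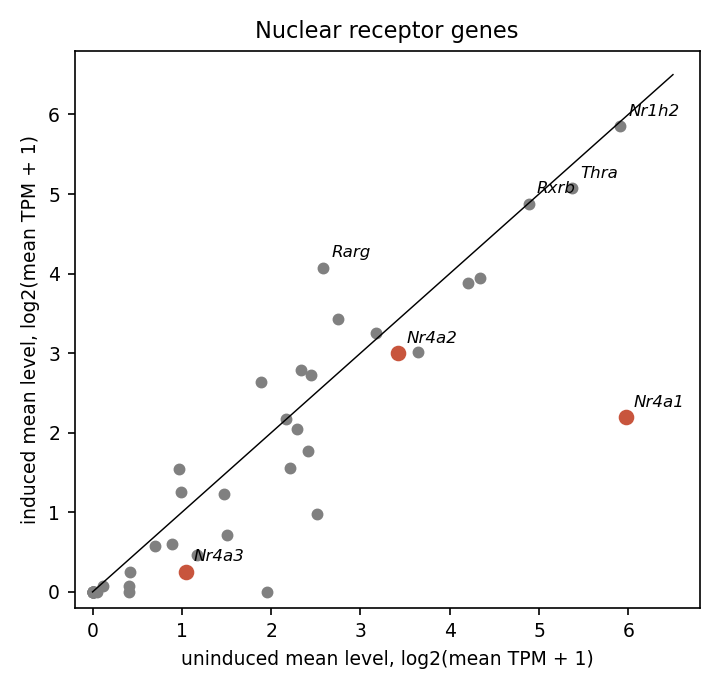
Mean level of each of 49 nuclear receptor genes on the log2(mean TPM + 1) scale, uninduced on the horizontal and induced on the vertical axis, with a line at equality and the Nr4a genes in red. Nr4a1 lies far below the line, at 61.6 against 3.58 TPM, while Nr4a2 lies near it and Nr4a3 close to the origin.

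Another list held genes reported as targets of Egr or Nr4a factors in blood and immune cells. Of its 33 genes 21 were tested, with 3 that fell, 1 that rose and 17 that did not pass, and a median log2 difference of -0.08 beside -0.35 over all genes. Trp53, which encodes p53, fell, its mean of 56.2 ± 11.1 TPM becoming 20.3 ± 5.07 TPM (SD, n = 3 in each group; log2 difference -1.44, limma adjusted p = 0.00761). Ccnd2, cyclin D2, fell, its mean of 86.03 ± 10.04 TPM becoming 39.9 ± 1.19 TPM (SD, n = 3 in each group; log2 difference -1.08, limma adjusted p = 0.00537). Bhlhe40, a repressor with a role in the circadian clock, rose, its mean of 9.26 ± 3.58 TPM becoming 27.3 ± 5.20 TPM (SD, n = 3 in each group; log2 difference 1.52, limma adjusted p = 0.0160). The calls of Trp53, Ccnd2 and Bhlhe40 stood after median-of-ratios scaling. Trp53 and Ccnd2 also passed whichever library was left out, whereas Bhlhe40 was lost without any 1 of the induced libraries (limma adjusted p = 0.0501 to 0.0726). Dgkz, Tgfb1 and Cd44, the most abundant without a call, had log2 differences of -0.54, 0.19 and -0.34 (limma adjusted p = 0.0536, 0.499 and 0.421). Cebpa, a myeloid factor reported downstream of Nr4a receptors, had a mean below the filter.

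The genes whose values over the 6 libraries were most like those of Nr4a1 were Kif22, Slc22a3, Mycn, Prim1 and Spc24. Likeness was the root mean square distance between log2(TPM + 1) values after each gene's mean was removed, and it was 0.239, 0.351, 0.352, 0.452 and 0.497 log2 units. Kif22 is a mitotic kinesin, Prim1 a primase subunit and Spc24 a kinetochore protein. Mycn, a Myc relative, was at 121, 160.2 and 138 TPM in the uninduced libraries, against 8.38, 13.8 and 14.4 TPM in the induced ones. For Egr1 the nearest genes were Hdac6, Aldh1a1, Nasp, Rpl35a-ps2 and Gm15459, at 0.130 to 0.141 log2 units. Aldh1a1, a retinaldehyde dehydrogenase, was at 57.3, 60.7 and 49.97 TPM in the uninduced libraries, against 13.8, 12.2 and 12.7 TPM in the induced ones. With 2 groups of 3, likeness mostly records the gap between groups.

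Marker genes of other cells and states were summed in each library to stand beside these values. Cell cycle markers summed to 370.4 to 438 TPM in uninduced and 75.4 to 110.4 TPM in induced libraries, with 9 of 10 called lower and none below the filter. Erythroid markers summed to 45.97 to 53.5 and 348 to 409 TPM, with 5 of 7 called higher. Most of the induced sum was the globin genes Hba-a1, Hbb-bs and Hbb-bt, with induced means of 98.5, 177.5 and 90.6 TPM. Klf1 was not called, and Epor went the other way without a call (log2 difference -1.65, limma adjusted p = 0.0638). Heat shock genes, which respond to handling of cells, summed to 724 to 830.2 and 467 to 498 TPM. Of these 7 genes 5 were tested and 3 were called lower, and median-of-ratios scaling left 1 of the calls. The part of each in the Nr4a1 and Egr1 differences was not tested.

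Markers of other blood cells differed in level. Of 9 T and NK cell markers 7 were listed at 0 in every library, among them Cd3e, Cd3d and Cd3g, and the sum was 2.38 to 15.0 TPM in uninduced and 0.601 to 7.04 TPM in induced libraries. Of 6 B cell markers 5 were at 0, Ms4a1 and Pax5 included, and the sum was 4.21 to 9.86 and 3.11 to 3.85 TPM. Macrophage and granulocyte markers summed to 218 to 268 and 187 to 241 TPM and none of the 5 tested was called, but under median-of-ratios scaling Lyz2 was called higher (limma adjusted p = 0.0130). Elane, Mpo, S100a8 and S100a9 went the other way without a call, with log2 differences of -1.15, -1.10, -0.56 and -0.675. After median-of-ratios scaling these were -0.82, -0.74, -0.16 and -0.27. Lyz2 was the most abundant gene of this list, with means of 97.9 and 131 TPM, while the macrophage genes Csf1r and Adgre1 did not exceed 0.634 and 1.54 TPM. Megakaryocyte markers summed to 102 to 138 and 120 to 129 TPM, with 2 of 6 higher (Pf4 and Ppbp) and 1 lower (Gp9), a call that median-of-ratios scaling removed (limma adjusted p = 0.0623). Markers of stroma and endothelium summed to 24.8 to 37.0 and 39.9 to 48.6 TPM, with Col1a1 and Lepr at 0. Most of that sum was Pecam1, an adhesion molecule of endothelium that blood cells also carry, with means of 19.4 ± 5.10 and 34.1 ± 4.94 TPM (SD, n = 3 in each group). Pecam1 was not called (limma adjusted p = 0.0661) but was higher under median-of-ratios scaling (limma adjusted p = 0.0320), while Kdr, Pdgfrb and Emcn were called under neither. Of these lists, those of B cells and of stroma and endothelium did not overlap between the groups in their sums.

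**Figure D5:**
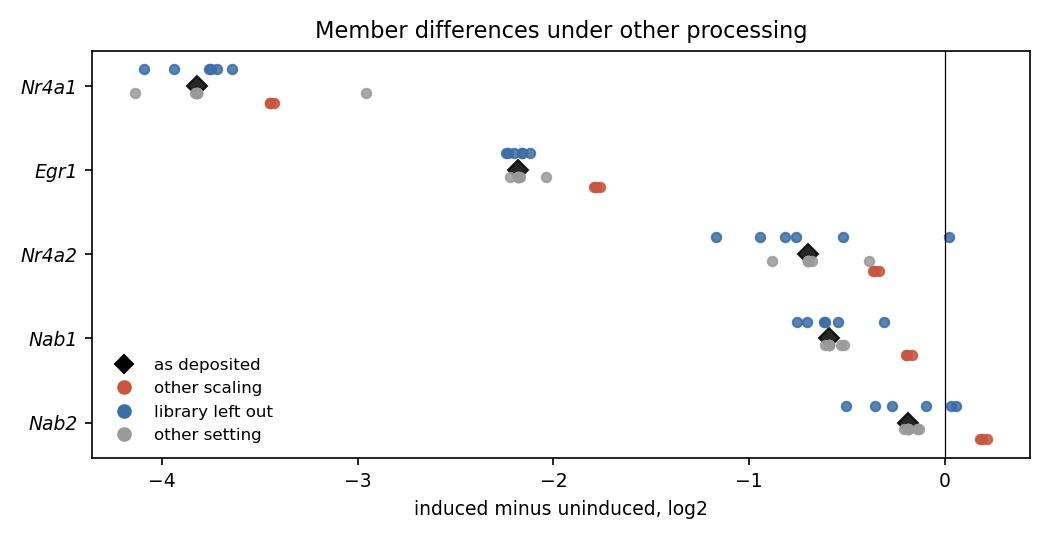
Log2 difference, induced minus uninduced, of the 5 tested members as deposited (black diamond), under 3 other scalings (red), with 1 library left out (blue) and under other settings (grey). Nr4a1 stays between -4.14 and -2.96 and Egr1 between -2.24 and -1.76, whereas Nr4a2 and Nab2 have values on both sides of 0.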

How the data were processed

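Transcript abundance in 6 libraries, 3 uninduced and 3 induced by their titles, was taken from the TPM values in a single table that the authors deposited. Extraction used a single-cell kit and library preparation a stranded total-RNA kit for very low input, per the labels' protocols. The submitters' processing notes name bcl2fastq, HISAT2, StringTie, DESeq2 and GRCm38, without versions or roles; the annotation release and whether counting used strand are not given in the sources used here. Rows were summed per gene ID, 5025 of 60496 rows repeating an ID, and 131 IDs having repeats that differ.

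TPM are not counts, so limma 3.58.1 (R 4.3.3) was run on log2(TPM + 1), with a variance trend, two-sided, on genes whose mean reached 1 TPM, with Benjamini-Hochberg adjustment over all 13470 and a threshold of 0.05. Depth is unknown, so no counting interval or floor is given. The members and lists were chosen with earlier results of these data known. Of each list, up to 5 called genes a direction with non-overlapping groups and the 3 most abundant uncalled genes are named, with the 5 genes most like Nr4a1 and Egr1; others are said to have been singled out. Replicate numbers did not pair the libraries. Positions are from GENCODE M21 (GRCm38) and RefSeq. Alternatives were pseudocounts, filters, scalings, variance models, a replicate block and omission of single libraries. Some genes counted in the lists are not reported here by name.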

Additional observations from a re-analysis of the deposited data

How the results depend on the processing

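Differences of members under 16 alternatives, with limma refitted: Nr4a1 (-3.82) was -2.96 with a pseudocount of 5, -3.45 under quantile normalization and -3.43 after rescaling to nuclear protein-coding genes, and Egr1 (-2.18) was -2.04, -1.79 and -1.76 under these, and -1.78 under median-of-ratios scaling. Nab1 (-0.59) was -0.197, -0.194 and -0.168 under median-of-ratios, quantile and protein-coding scaling, and Nab2 (-0.19) turned to 0.189, 0.179 and 0.217. The scalings remove the offset of the median gene. Omitting 1 library at a time gave -4.09 to -3.64 for Nr4a1, -2.24 to -2.12 for Egr1, -1.17 to 0.0204 for Nr4a2 (positive without induced replicate 2), -0.757 to -0.309 for Nab1 and -0.506 to 0.0555 for Nab2 (positive without uninduced replicate 2, and at 0.0338 without induced replicate 3).

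Genes past the threshold numbered 1549 (174 higher, 1375 lower). They were 752 (96, 656) without a filter, 806 (388, 418) with median-of-ratios, 814 (374, 440) with quantile, 944 (465, 479) with protein-coding scaling and 767 (108, 659) without the variance trend. Leaving out a library gave 573 to 1198 (69 to 128 higher, 494 to 1070 lower). With the replicate block there were 902 (782 lower), with 1 immediate early gene higher and 4 lower and 0 other nuclear receptors lower. Deviations of same-numbered libraries correlated at 0.0215, -0.0152 and 0.0172, and not every library was closest to its own number.

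Immediate early genes called higher (2) were 0 without a filter and without the variance trend, 8 under median-of-ratios and quantile scaling and 13 after protein-coding rescaling; those called lower (7) were 3, 3, 2, 2 and 3 in the same order. Leaving out a library gave 0 to 1 higher and 1 to 7 lower. In the upstream list 1 gene was called lower with the filter at 5 TPM and with array weights, and 0 when any library was left out. Of the other nuclear receptors, 0 were lower at 5 TPM, and 0 to 1 in either direction with a library omitted. Reported targets called higher (1) were 0 without a filter, 2 under median-of-ratios and quantile scaling, 3 after protein-coding rescaling, and 0 to 1 with a library omitted; 3 were lower each time a library was left out. Of the 17 called genes examined, Kit and Ly6a included, none changed sign; in 52 of 102 fits without a library the call was lost. Zfp36l1 and Klf6 were also not called without a filter (limma adjusted p = 0.0934 and 0.0549) or without the variance trend (0.0558 and 0.117), nor Bhlhe40 without a filter (0.0678). Why these calls were lost was not tested.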
